A study of Mus musculus with 24 samples.

Results

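The genes described here are 36 chemokine ligands and receptors of the mouse, 25 ligands and 11 receptors, out of 22609 gene symbols counted in every library. They were chosen by name as a gene family. A gene was kept in a tissue where at least 3 of its libraries had at least 10 reads on it. This kept 30 of the 36 in at least 1 tissue, 27 in paw skin, 19 in dorsal root ganglia (DRG) and 16 in spinal cord, and 12 in every tissue. The other 6 were kept in no tissue: Ccl19 and Ccl28 had 0 counts in all 24 libraries, Xcl1 had 0 to 7, Ccr3 0 to 13, Ccr6 0 to 11 and Cxcr5 0 to 12. The mouse genome holds near-identical copies of Ccl19, so its count is uncertain. A count of 0 allows up to 3 counts in a library, which was 0.0732 counts per 1e6 reads (CPM) in the deepest library and 0.191 CPM in the shallowest.

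Chemokines are small secreted proteins that steer leukocytes along gradients, and their receptors are G protein-coupled receptors on the cells that respond. CXC ligands carrying an ELR motif, such as Cxcl1, Cxcl2, Cxcl3 and Cxcl5, bind Cxcr2 and attract neutrophils, whereas the interferon-induced Cxcl9, Cxcl10 and Cxcl11 bind Cxcr3 on T and NK cells. Ccl11 and Ccl24 are eotaxins that bind Ccr3, Ccl17 and Ccl22 bind Ccr4, and Cxcl12 binds Cxcr4. The lymphotoxin-beta receptor (LTβR), a member of the TNF receptor family, signals through the classical and the alternative NF-κB pathway, and many chemokine genes have NF-κB sites near their start.

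The study gave male C57 mice aged 8 to 12 weeks an antibody that activates LTβR, or IgG as control, at 10 µg per injection into the sole of the hind paw. RNA was sequenced from punch biopsies of paw skin and from DRG of levels L3 to L5 at day 1 after the first agonist injection, at day 6 after 2 injections and at 24 hours after IgG, with 3 libraries in each of these 6 groups. Lumbar spinal cord had 3 libraries at day 1 and 3 at day 6 of agonist, and cord from IgG-treated mice was not analysed here. The labels name no transgene or deletion in any group. The IgG tissue was taken at 1 time only, so the day 6 groups differ from it in time and in number of injections as well as in antibody, and these cannot be told apart. The labels do not agree on what day 6 counts from: the titles put the injections on days 1 and 3, whereas the design text counts 6 days after 2 injections. Samples carry a number in the labels, but nothing states that they came from different animals, so p-values here reflect only the spread among these samples, which may be technical.

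Reads counted in genes were 24.2 to 41.0 in paw, 21.6 to 34.2 in DRG and 15.7 to 26.3 in cord, in units of 1e6 reads per library. Defining markers fitted the tissue labels, with summed keratinocyte keratins of 43086 to 83884 CPM in paw, sensory neuron genes of 4112 to 5078 CPM in DRG and oligodendrocyte and astrocyte genes of 4406 to 5599 CPM in cord. Several libraries stood apart. Paw IgG library 1 had 180 CPM of skeletal muscle genes where the other 8 paw libraries had 4381 to 29734. DRG IgG library 1 had 31.5% of its reads outside annotated genes where the other 8 DRG libraries had 13.1 to 13.8%. In DRG the skeletal muscle genes summed to 17.3, 4244 and 4680 CPM with IgG, 5698, 310 and 26.5 CPM at day 1 and 197, 22.2 and 443 CPM at day 6. The part of muscle RNA in the DRG differences was not tested beyond a fit with a muscle term. Cord day 6 library 1 had 404 CPM of neutrophil genes where the other 5 cord libraries had 33.6 to 110.

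The starts of 4 CXC ligand genes are shown because Cxcl1, Cxcl2 and Cxcl3 share 1 stretch of the κB consensus, and because Cxcl10 carries it more than once. The κB consensus is the DNA sequence that NF-κB proteins bind. The sequences are RefSeq promoters of the GRCm38.p6 build, read 5′ to 3′ on the strand of the gene, and capitals mark the bases matching the κB consensus on either strand, with overlapping matches merged.
Cxcl1 (chr5:90891149-90891209, plus strand): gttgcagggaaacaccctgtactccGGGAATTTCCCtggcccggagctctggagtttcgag
Cxcl2 (chr5:90903777-90903837, plus strand): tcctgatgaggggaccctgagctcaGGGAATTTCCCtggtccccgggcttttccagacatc
Cxcl3 (chr5:90786003-90786063, plus strand): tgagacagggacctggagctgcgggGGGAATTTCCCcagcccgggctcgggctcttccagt
Cxcl10 (chr5:92348958-92349127, minus strand): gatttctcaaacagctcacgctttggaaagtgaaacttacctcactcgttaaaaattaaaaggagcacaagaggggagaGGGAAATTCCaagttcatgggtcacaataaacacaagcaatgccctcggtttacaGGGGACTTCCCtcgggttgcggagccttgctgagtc

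Cxcl1, Cxcl2 and Cxcl3 hold the same 11 bases, GGGAATTTCCC, beginning at -71, -97 and -73 from the annotated start. Cxcl10 holds a stretch at -159 and another at -104, and an interferon response-like match, GAAAGTGAAA, at -213. Of the 36 genes, 26 had an entry in the RefSeq table, in 28 windows of 300 bases that run from 250 before the start to 50 after it. A κB match was present in 9 of the 28 windows, 1 for each of 9 genes (Ccl9, Ccl20, Ccr1, Ccr3, Ccr6, Cxcl1, Cxcl2, Cxcl3 and Cxcl10), and in 8.46% of 32851 windows of all genes. The interferon response-like motif, which is GAAA, any 2 bases and GAAA again, was searched on both strands independently of the κB consensus and matched in 3 genes (Ccl19, Cxcl10 and Cxcl14) and in 3.44% of all windows. A match describes letters and is neither a bound site nor a cause of a difference, and these coordinates were not joined to the counts, which were made on the mm9 build.

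Levels were first compared between the tissues, with all 24 libraries scaled together. For 13 of the 30 kept genes every paw library lay above every library of DRG and cord: the ligands Ccl6, Ccl9, Ccl20, Ccl22, Ccl24, Cxcl2, Cxcl3, Cxcl5, Cxcl12 and Cxcl16 and the receptors Ccr1, Ccr9 and Cxcr2. Of these, Ccl20, Ccl24, Cxcl2, Cxcl3 and Ccr9 met the count minimum in paw only, so the filter itself favours their place there. The same share over all genes was not computed, so the count of 13 is not read as a trait of the family. Cxcl11 was the only gene whose DRG libraries all lay above the rest, at 2.51 to 4.35 CPM with a median of 3.41, against at most 0.281 CPM in paw and 1.98 CPM in cord. Ccl25, a ligand of Ccr9, was the only gene placed highest in cord in this way, at 4.72 to 6.16 CPM against at most 3.27 CPM in paw and 2.55 CPM in DRG. The other 15 kept genes overlapped between tissues. In these bulk tissues, fewer cells of a type and less RNA per cell cannot be told apart.

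Cxcl14, a chemokine made by epithelia and by some neurons, was abundant in paw and cord and scarce in DRG. It had 69.1 to 232 CPM in paw and 66.3 to 92.5 CPM in cord, which overlapped, and 0.550 to 2.97 CPM in DRG, below every library of both. Cxcl12, which holds leukocytes and progenitors in tissues, was detected strongly everywhere, at 201 to 313 CPM in paw, 56.6 to 84.1 CPM in DRG and 48.6 to 80.0 CPM in cord, where DRG and cord overlapped. Its receptor Cxcr4 was highest in DRG by its median, with 13.2 to 19.0 CPM in DRG, 4.28 to 14.0 CPM in cord and 1.53 to 7.08 CPM in paw. DRG and paw did not overlap, and cord overlapped with both. Ccr9, the receptor of Ccl25, had 9.22 to 17.8 CPM in paw and at most 0.323 CPM elsewhere, so that the receptor and its ligand were highest in different tissues.

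**Figure D1:**
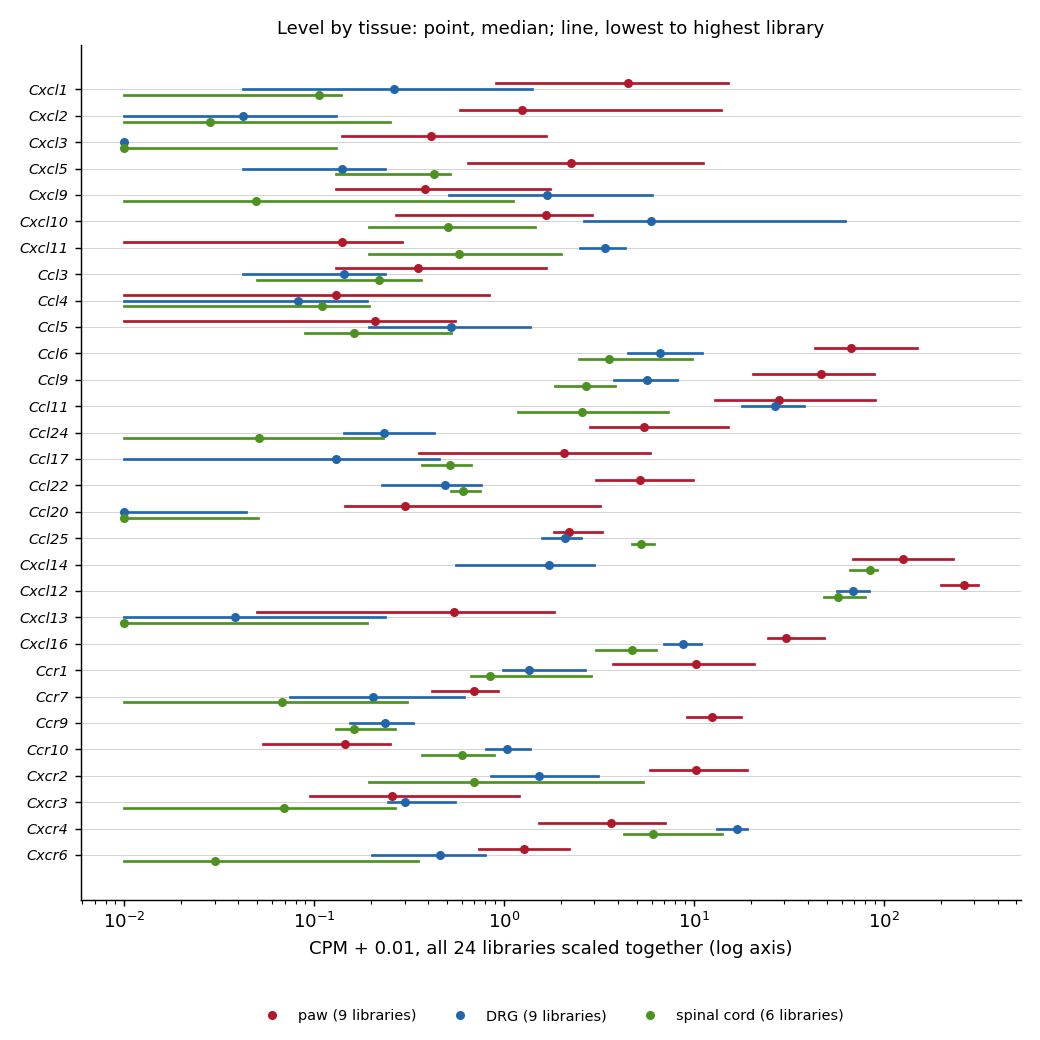
Level of the 30 kept genes in each tissue as CPM plus 0.01 on a log axis, with a point at the median and a line from the lowest to the highest library of paw (9 libraries), DRG (9) and spinal cord (6). Cxcl14 lies at 69.1 to 232 CPM in paw and 66.3 to 92.5 CPM in cord but at 0.550 to 2.97 CPM in DRG. The neutrophil-attracting ligands Cxcl2, Cxcl3 and Cxcl5 lie highest in paw, where alone Cxcl2 and Cxcl3 met the count minimum.

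To compare genes with each other, CPM were divided by the exon length of each gene in a GRCm38 annotation, which is not the one the counts were made with. On this per kilobase scale the median over libraries was highest in paw for Cxcl14 (69.0 CPM per kb), Ccl6 (46.7), Cxcl12 (36.9) and Ccl11 (25.9). This order held for the group means with IgG. At day 1 Ccl11 came second (64.1 ± 18.4 CPM per kb, SD, n = 3), and at day 6 Ccl6 came first (80.6 ± 26.3) and Cxcl14 second (44.1 ± 9.54). In DRG the order was Ccl11 (24.8 CPM per kb), Cxcl12 (9.62) and Cxcr4 (9.37), but Cxcl10 came second by its mean at day 1 (21.6 ± 17.0) and Cxcr4 second at day 6 (10.3 ± 0.204). In cord it was Cxcl14 (46.4 CPM per kb), Cxcl12 (8.03) and Cxcr4 (3.39), where Ccl25 (3.57 ± 0.374) was above Cxcr4 (2.46 ± 0.0840) by its mean at day 1. The eotaxin Ccl11 had the highest mean per length in each group of ganglia, at 16.7 to 35.0 CPM per kb over the libraries, although Cxcl10 at 11.7 to 41.2 CPM per kb overlapped with it at day 1. Its receptor Ccr3 was kept in no tissue.

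The main question was whether these genes differed after LTβR activation. Each tissue was tested with the edgeR quasi-likelihood F test over all its genes, and a gene was called where its p, adjusted by Benjamini and Hochberg over all genes tested, was under 0.05. Fold changes are given as log2 values with their standard error (SE), CPM as single libraries or as mean ± SD with n = 3, and comparisons with IgG share the same IgG libraries. None of the genes tested was called in any of the 7 comparisons within tissues or in the 2 comparisons of the paw and DRG responses. The paragraphs on each comparison give how many passed an unadjusted p of 0.05, the same share over all genes, and how many were called by DESeq2 and by limma voom. The values below are therefore differences between these libraries that edgeR did not separate from their spread after adjustment. Some genes met the count minimum only with the libraries of the group where they were high, so the filter itself favours their direction. Among those with an unadjusted p under 0.05 these were Cxcl1 in DRG, Cxcr3 and Ccl20 in paw, and Cxcr2 and Cxcl10 in cord. The share of all genes called after adjustment is given for edgeR only. Over all alternative settings, DESeq2 and voom among them, up to 209 genes were called in paw at day 1, 509 at day 6 and 737 between these days. In DRG up to 131 were called at day 1, 2 at day 6 and 105 between them. In cord up to 818 were called, in a fit that left out 1 library. These are the largest counts of any setting and are not given for DESeq2 or voom alone. The calls by DESeq2 and voom thus have no all-gene share beside them and are not read as a trait of the family.

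**Figure D2:**
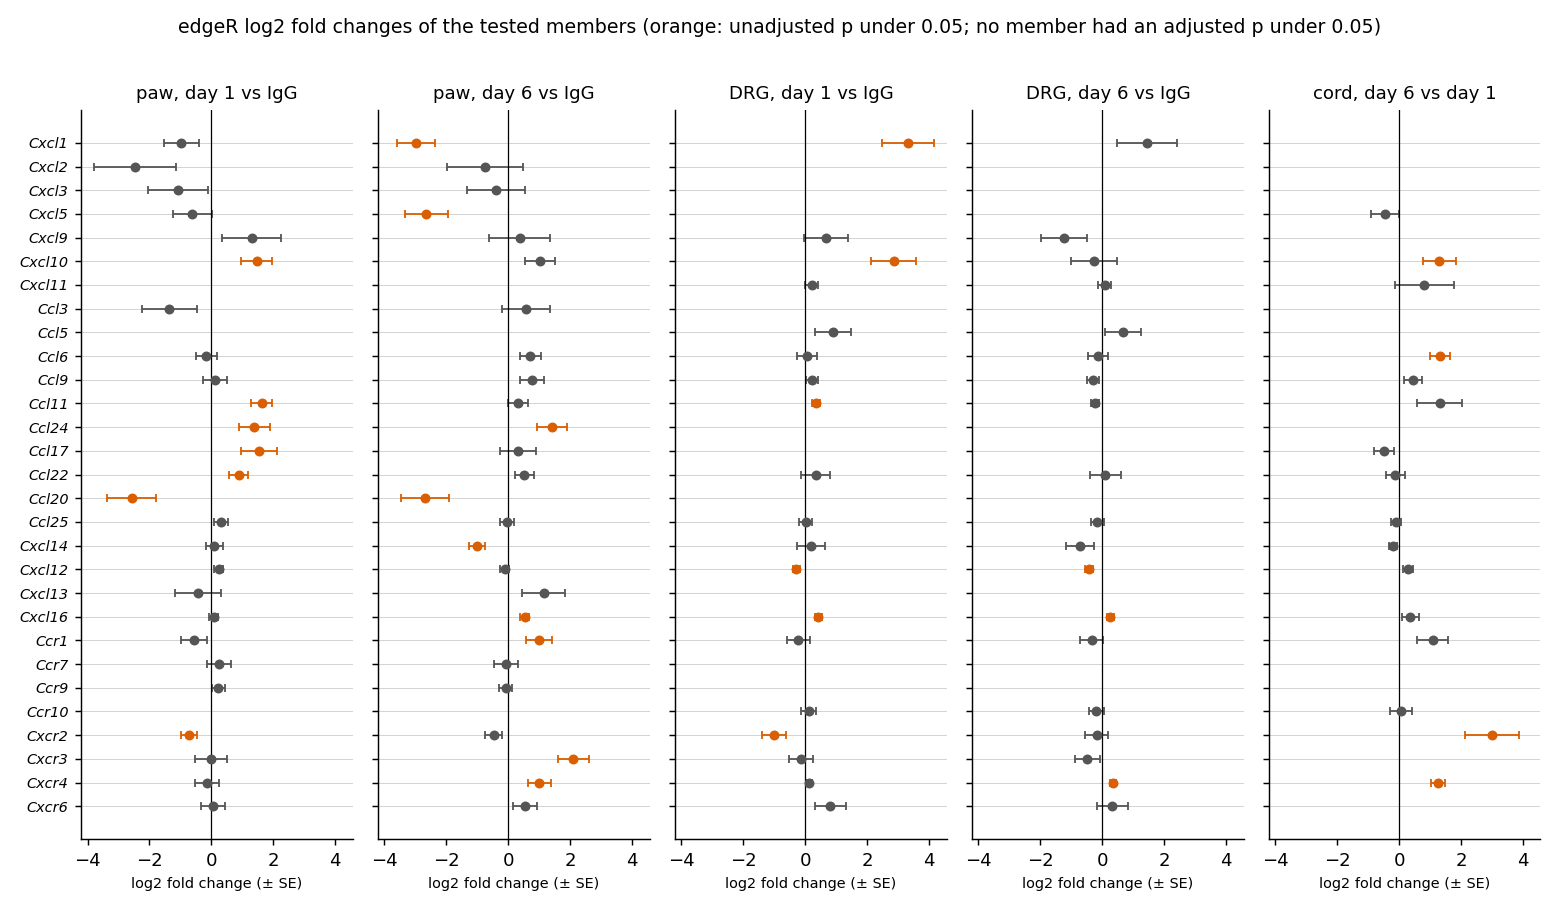
Log2 fold change with its SE (horizontal bars) for each tested gene in 5 comparisons by edgeR, in orange where the unadjusted p was under 0.05. No gene had an adjusted p under 0.05. Cxcl1 lies at -2.98 ± 0.62 in paw at day 6 and at 3.32 ± 0.84 in DRG at day 1. In DRG it met the count minimum only with the day 1 libraries.

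In paw skin at day 1 the eotaxins Ccl11 and Ccl24, the Ccr4 ligands Ccl17 and Ccl22 and the Cxcr3 ligand Cxcl10 were higher than with IgG. The widest differences were toward lower values, at -2.57 ± 0.79 for Ccl20 and -2.47 ± 1.33 for Cxcl2 on the log2 scale, in both of which the groups overlapped. Of 26 genes tested, 5 were higher at an unadjusted p under 0.05 (Ccl11, Ccl24, Ccl17, Ccl22 and Cxcl10), where 4.01% of all 15287 genes were, and 2 were lower (Ccl20 and Cxcr2), where 6.63% of all genes were. All 3 agonist libraries lay above all 3 IgG libraries for 4 genes, against 6.40% of all genes, and below them for 1, against 8.60%. After adjustment 0 were called by edgeR (0.00654% of all genes, that is 1 gene) and 0 by voom, and 1, Ccl11, by DESeq2. The median log2 fold change was 0.06 over the 26 genes and 0.01 over all genes.

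Ccl11 had 12.0, 27.6 and 26.6 CPM in the IgG libraries, 88.5, 67.6 and 47.7 CPM at day 1 and 30.2, 24.7 and 26.5 CPM at day 6. All day 1 libraries lay above all others, and the day 6 libraries overlapped with IgG. At day 1 this was 3.08-fold higher than IgG (log2 1.62 ± 0.33 SE, adjusted p 0.348), with 22.1 ± 8.78 CPM in IgG and 67.9 ± 20.4 CPM at day 1 (SD, n = 3). Between day 1 and day 6 the log2 difference was -1.33 ± 0.33 (adjusted p 0.119), and it was called by DESeq2, by voom, with a skeletal muscle term in the edgeR fit and with only the groups compared in the fit, but not by edgeR as planned. Ccl24, the other eotaxin of the list, had 2.98, 2.80 and 4.32 CPM with IgG, 13.0, 5.40 and 7.99 CPM at day 1 and 15.0, 7.88 and 4.04 CPM at day 6. Every day 1 library was above IgG, while the lowest day 6 library was not (log2 1.39 ± 0.49 at day 1 and 1.41 ± 0.49 at day 6, adjusted p 0.416 and 0.347). The receptor of both, Ccr3, stayed under the count minimum, the granule gene Epx was at 0 in all 9 paw libraries, and the other eosinophil markers summed to at most 0.436 CPM there.

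Ccl17 and Ccl22 are made by dendritic cells and macrophages. Ccl17 had 0.322, 2.06 and 1.93 CPM with IgG, 5.81, 3.29 and 3.29 CPM at day 1 and 1.80, 2.39 and 1.15 CPM at day 6. Day 1 stood above both other groups (log2 1.53 ± 0.58 against IgG, adjusted p 0.428). Ccl22 had 4.75, 3.00 and 5.03 CPM with IgG and 9.74, 4.93 and 8.80 CPM at day 1, where the lowest day 1 library lay inside the IgG range (log2 0.88 ± 0.31, adjusted p 0.405). At day 6 it had 4.69, 6.56 and 7.15 CPM. The interferon-induced Cxcl10 had 0.242, 1.36 and 0.825 CPM with IgG, 1.97, 2.88 and 1.84 CPM at day 1 and 1.43, 1.55 and 1.96 CPM at day 6. Both agonist groups lay above all IgG libraries (log2 1.46 ± 0.49 at day 1, adjusted p 0.400, and 1.02 ± 0.49 at day 6, adjusted p 0.561). Paw IgG library 1, which had few muscle reads, was the lowest IgG library for Ccl11, Ccl17 and Cxcl10, and without it their day 1 differences were 1.34 ± 0.23, 1.08 ± 0.39 and 1.05 ± 0.33.

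**Figure D3:**
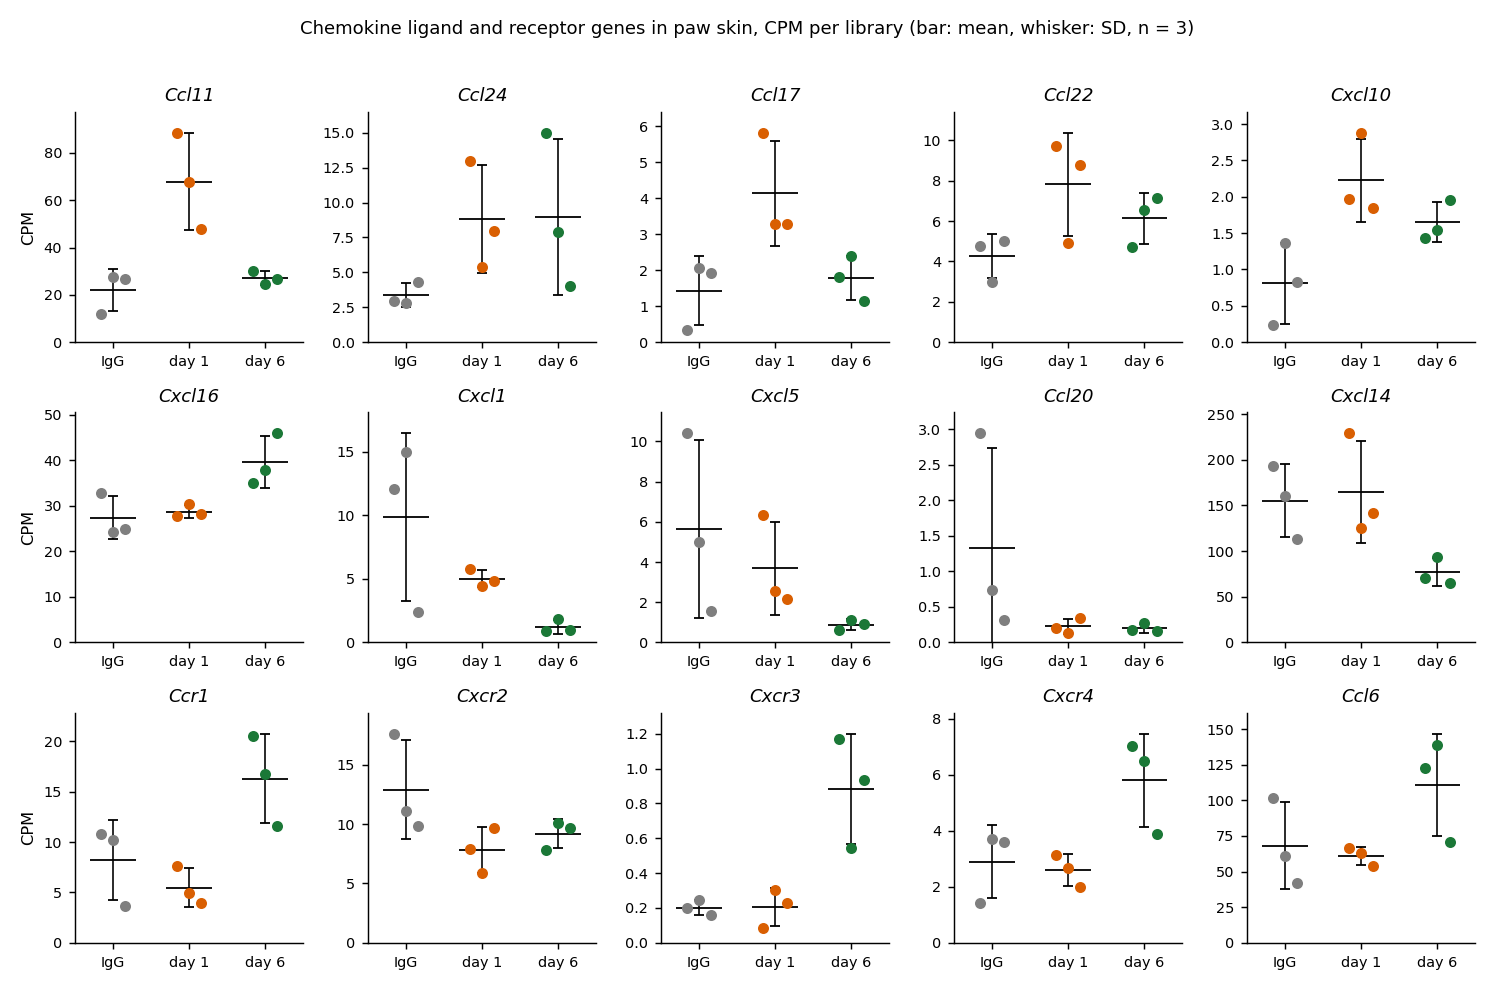
CPM of 15 chemokine ligands and receptors in each paw skin library after IgG, at day 1 and at day 6 of agonist (points, with the mean as a bar and the SD as a whisker, n = 3; each panel has its own axis from 0). Ccl11 is at 47.7 to 88.5 CPM at day 1 and at 12.0 to 30.2 CPM in the other groups, and Cxcr3 is at 0.546 to 1.17 CPM at day 6 and at 0.0842 to 0.302 CPM in the others. Cxcr3 met the count minimum in paw only through its day 6 libraries.

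Of the neutrophil-attracting ligands, Cxcl1 and Cxcl5 were lower at day 6 in paw. Cxcl1 had 12.1, 15.0 and 2.40 CPM with IgG, 5.76, 4.43 and 4.86 CPM at day 1 and 0.886, 1.84 and 0.963 CPM at day 6. The day 6 libraries all lay below the IgG and day 1 libraries, and the IgG libraries were widely spread. Against IgG the day 6 level was 7.90-fold lower (log2 -2.98 ± 0.62, adjusted p 0.0850), the smallest adjusted p of the family in any comparison. Cxcl5 had 10.4, 4.98 and 1.57 CPM with IgG, 6.35, 2.55 and 2.14 CPM at day 1 and 0.629, 1.14 and 0.901 CPM at day 6, again with day 6 below all others (log2 -2.65 ± 0.70 against IgG, adjusted p 0.184). Ccl20, the ligand of Ccr6 made by stressed epithelium, had 2.94, 0.740 and 0.314 CPM with IgG, 0.197, 0.134 and 0.344 CPM at day 1 and 0.172, 0.273 and 0.155 CPM at day 6. IgG library 1 was far above the rest. Without it the day 6 difference was -1.31 ± 0.54 for Ccl20, where it was -2.69 ± 0.78 with it, and -1.83 ± 0.62 for Cxcl5.

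Cxcl2 and Cxcl3 did not follow the groups. Cxcl2 had 3.50, 13.8 and 0.707 CPM with IgG, 1.40, 0.637 and 1.19 CPM at day 1 and 0.572, 9.04 and 0.932 CPM at day 6. Cxcl3 had 1.13, 1.52 and 0.157 CPM with IgG, 0.730, 0.369 and 0.191 CPM at day 1 and 0.400, 1.55 and 0.124 CPM at day 6. Library 2 was the highest of its group for both genes with IgG and at day 6, and the groups overlapped. Their receptor Cxcr2 had 17.6, 11.1 and 9.86 CPM with IgG, 7.92, 5.84 and 9.68 CPM at day 1 and 7.84, 10.1 and 9.69 CPM at day 6, with the day 1 libraries just below IgG (log2 -0.72 ± 0.26, adjusted p 0.416).

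Markers of other cells had the order of these ligands among some libraries, but not between day 1 and day 6. The 7 neutrophil genes found in the files, led by S100a8 and S100a9, summed to 305, 390 and 36.4 CPM with IgG, 60.9, 17.1 and 24.3 CPM at day 1 and 17.9, 133 and 5.90 CPM at day 6. The 7 keratinocyte stress genes, such as Krt6a and Sprr1b, summed to 7232, 6650 and 2100 CPM with IgG, 2271, 1374 and 1542 CPM at day 1 and 760, 3088 and 1103 CPM at day 6. Both sums were lowest in IgG library 3 among the controls, as Cxcl1, Cxcl2, Cxcl3, Cxcl5 and Ccl20 were, and highest in library 2 at day 6, as Cxcl1, Cxcl2, Cxcl3, Cxcl5 and Ccl20 were. From day 1 to day 6 Cxcl1 and Cxcl5 were lower. The mean sums at these times were 34.1 and 52.2 CPM for the neutrophil genes and 1729 and 1650 CPM for the stress genes. Their part in the differences was not tested. Without IgG library 3 the day 6 differences were -3.45 ± 0.33 for Cxcl1 and -3.10 ± 0.55 for Cxcl5.

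At day 6 in paw, the leukocyte receptors Ccr1, Cxcr3 and Cxcr4 were higher than with IgG, and 4 ligands that epithelium can make were lower. Of 26 genes tested, 5 were higher at an unadjusted p under 0.05 (Ccl24, Cxcl16, Ccr1, Cxcr3 and Cxcr4), where 6.12% of all genes were, and 4 were lower (Cxcl1, Cxcl5, Cxcl14 and Ccl20), where 3.62% were. The groups did not overlap for 5 higher genes (Cxcl10, Cxcl16, Ccr1, Cxcr3 and Cxcr4, against 8.22% of all genes) and 4 lower ones (5.87%). Of these, Cxcr3 met the count minimum only with the day 6 libraries and Ccl20 only with the IgG libraries, where each was high. After adjustment 0 were called by edgeR, where 0.706% of all genes were, 0 by voom and 6 by DESeq2 (Cxcl1, Cxcl5, Cxcl14, Cxcl16, Ccl20 and Cxcr3). That share is edgeR's, at 108 genes, and up to 509 genes were called over all alternative settings. The median log2 fold change was 0.35 over the 26 genes and -0.01 over all genes.

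Cxcr3, the receptor of Cxcl9 to Cxcl11, had 0.201, 0.247 and 0.157 CPM with IgG, 0.0842, 0.302 and 0.230 CPM at day 1 and 1.17, 0.546 and 0.932 CPM at day 6. Day 6 lay above every other paw library (4.30-fold against IgG, log2 2.10 ± 0.49, adjusted p 0.122, and log2 2.11 ± 0.48 against day 1, adjusted p 0.0854). The day 6 libraries had 41, 24 and 30 counts, and the other paw libraries 3 to 9. Only day 6 reached the minimum of 10 counts, so Cxcr3 was kept in paw through the group where it was high. The filter thus favours this direction. Ccr1, carried by monocytes and neutrophils, had 10.8, 10.2 and 3.65 CPM with IgG, 7.64, 4.90 and 3.94 CPM at day 1 and 20.5, 16.7 and 11.6 CPM at day 6 (log2 0.99 ± 0.42 against IgG, adjusted p 0.480). Cxcr4 had 1.41, 3.70 and 3.58 CPM with IgG, 3.12, 2.68 and 1.99 CPM at day 1 and 7.01, 6.49 and 3.88 CPM at day 6 (log2 1.00 ± 0.38, adjusted p 0.413). For all of these receptors the day 6 libraries lay above both other groups, by a narrow margin for Cxcr4 and Ccr1.

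Among ligands at day 6, Cxcl16, a membrane-bound ligand of Cxcr6, had 32.9, 24.3 and 25.0 CPM with IgG, 27.7, 30.4 and 28.1 CPM at day 1 and 35.1, 37.8 and 45.9 CPM at day 6, above both other groups (log2 0.53 ± 0.14 against IgG, adjusted p 0.189). Cxcl14 had 193, 160 and 113 CPM with IgG, 229, 125 and 142 CPM at day 1 and 71.1, 94.1 and 65.4 CPM at day 6, below both other groups (2.02-fold lower than IgG, log2 -1.01 ± 0.27, adjusted p 0.189). Ccl6, a ligand of Ccr1 made by myeloid cells, had 102, 61.1 and 42.1 CPM with IgG, 66.3, 62.8 and 53.8 CPM at day 1 and 123, 139 and 70.8 CPM at day 6, above day 1 but overlapping with IgG. Ccl9, its neighbour in the family, had 40.4 ± 19.8, 43.6 ± 6.25 and 68.3 ± 21.0 CPM in the same order (SD, n = 3), with overlap. Beside these genes, the 8 macrophage and monocyte markers summed to 187 to 267 CPM with IgG, 170 to 262 CPM at day 1 and 454 to 717 CPM at day 6, and the 7 T cell markers to 2.46 to 3.17, 3.98 to 6.54 and 5.65 to 7.52 CPM. Their part in the differences was not tested.

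Between day 1 and day 6 in paw, 6 of the 26 genes were higher at day 6 at an unadjusted p under 0.05 (Ccl3, Ccl6, Cxcl16, Ccr1, Cxcr3 and Cxcr4, against 8.57% of all genes) and 5 were lower (Ccl11, Cxcl1, Cxcl5, Cxcl12 and Cxcl14, against 5.41%). The groups did not overlap for 6 higher genes (12.7% of all genes) and 7 lower ones (9.57%). After adjustment 0 were called by edgeR (1.03% of all genes), 1 by voom (Ccl11) and 6 by DESeq2 (Ccl11, Cxcl1, Cxcl5, Cxcl14, Ccr1 and Cxcr3). Ccr1 had the log2 difference 1.56 ± 0.42 (adjusted p 0.148) and Cxcl14 -1.10 ± 0.27 (adjusted p 0.118).

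The other kept genes of the paw overlapped with IgG at both times, apart from Ccl4 at day 1, and none of those tested had an unadjusted p under 0.05 against it. Their largest day 6 value was 1.14 ± 0.70 for Cxcl13, the B cell attractant that LTβR signalling induces in lymphoid stroma, at 0.967, 0.535 and 0.0393 CPM with IgG and 0.772, 1.71 and 0.901 CPM at day 6. Ccl3 ranged from 0.118 to 1.23 CPM with IgG and from 0.311 to 1.55 CPM at day 6. Ccl4 met the count minimum but not the edgeR filter, and had 0.201, 0.822 and 0.118 CPM with IgG, 0.0842, 0 and 0.0383 CPM at day 1 and 0.286, 0.615 and 0.0621 CPM at day 6. Ccr7, the receptor of dendritic cells on their way to lymph nodes, had 0.604 ± 0.178, 0.718 ± 0.273 and 0.567 ± 0.129 CPM in the 3 groups, and Ccr9 had 11.3 ± 1.52, 13.2 ± 3.44 and 10.6 ± 1.81 CPM (SD, n = 3). Cxcr6 had 1.09 ± 0.352, 1.13 ± 0.168 and 1.58 ± 0.651 CPM, Ccl25 2.06 ± 0.372, 2.57 ± 0.578 and 1.99 ± 0.0856 CPM, and Cxcl12 249 ± 33.8, 292 ± 20.2 and 230 ± 34.7 CPM. Cxcl9 had 0.349 ± 0.0302 CPM with IgG and 0.115 to 1.71 CPM at day 1.

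In the DRG, which innervate the injected paw, the widest differences at day 1 were in Cxcl10 and Cxcl1, both higher than with IgG. Cxcl1 met the count minimum there only with the day 1 libraries, so the filter favours its direction. Of 19 genes tested, 4 were higher at an unadjusted p under 0.05 (Cxcl1, Cxcl10, Cxcl16 and Ccl11, against 4.66% of all 15461 genes) and 2 were lower (Cxcl12 and Cxcr2, against 2.74%). The same 6 genes were those whose groups did not overlap, where 7.55% of all genes were wholly higher and 5.65% wholly lower. After adjustment 0 were called by edgeR (0.168% of all genes), 0 by voom and 2 by DESeq2 (Cxcl1 and Cxcl10). The median log2 fold change was 0.20 over the 19 genes, 15 of which were positive, and 0.00 over all genes.

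Cxcl10 had 7.47, 2.77 and 3.77 CPM with IgG, 18, 63.1 and 18.1 CPM at day 1 and 6.00, 2.66 and 2.67 CPM at day 6. Every day 1 library lay above every other DRG library, and day 6 overlapped with IgG. At day 1 it was 7.21-fold higher than IgG (log2 2.85 ± 0.72, adjusted p 0.373), and without day 1 library 2 the log2 value was 1.96 ± 0.50. That library also had 131 CPM of keratinocyte keratins where the other 8 DRG libraries had 39.9 to 79.8, whose part was not tested. Cxcl9, induced by interferon gamma, had 2.91, 0.510 and 3.48 CPM with IgG, 3.19, 6.05 and 1.70 CPM at day 1 and 1.03, 0.557 and 1.34 CPM at day 6, so that day 1 overlapped with IgG and lay above day 6. Cxcl11 was 3.26 ± 0.977, 3.76 ± 0.353 and 3.43 ± 0.585 CPM (SD, n = 3) and overlapped throughout. Their receptor Cxcr3 had 0.329, 0.364 and 0.483 CPM with IgG, 0.293, 0.547 and 0.238 CPM at day 1 and 0.258, 0.295 and 0.294 CPM at day 6.

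Cxcl1 was scarce in DRG. It had 4, 1 and 2 counts with IgG, 43, 34 and 10 counts at day 1 and 9, 1 and 14 counts at day 6, which is 0.188, 0.0364 and 0.0644 CPM, then 1.40, 1.03 and 0.340 CPM, then 0.258, 0.0328 and 0.457 CPM. All day 1 libraries lay above all IgG libraries (log2 3.32 ± 0.84, adjusted p 0.286), and day 6 overlapped with both. Outside day 1 only the day 6 library with 14 counts reached the minimum of 10. Cxcl1 was thus kept in DRG through the group where it was high, and the filter favours this direction. Over pooled counts the day 1 level was 10.7 times that of IgG, from 87 against 7 counts, with an exact 95% interval of 4.97 to 27.3 that covers counting error only. Without DRG IgG library 1, the one with more reads outside genes, the log2 value was 4.07 ± 1.05 for Cxcl1 and 3.33 ± 0.85 for Cxcl10.

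**Figure D4:**
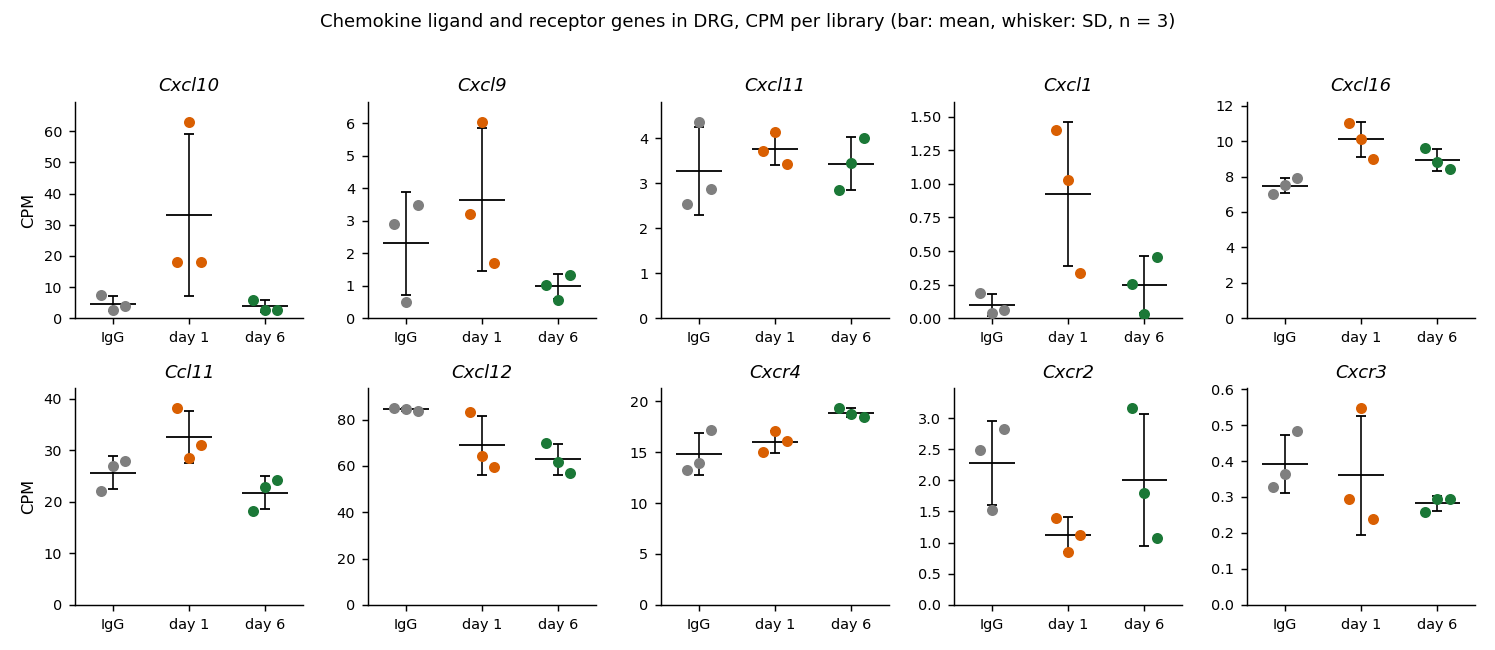
CPM of 10 chemokine ligands and receptors in each DRG library after IgG, at day 1 and at day 6 of agonist (points, with the mean as a bar and the SD as a whisker, n = 3; each panel has its own axis from 0). Cxcl10 is at 18 to 63.1 CPM at day 1 and at 2.66 to 7.47 CPM in the other groups, while Cxcl11 overlaps in all groups.

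Other differences in DRG were smaller. Cxcl16 had 7.04, 7.50 and 7.92 CPM with IgG, 11, 10.1 and 9.01 CPM at day 1 and 9.62, 8.82 and 8.41 CPM at day 6, so that both agonist groups lay above IgG (log2 0.42 ± 0.11 at day 1, adjusted p 0.266, and 0.26 ± 0.11 at day 6, adjusted p 0.995). Ccl11 had 22.1, 27.0 and 28.0 CPM with IgG, 38.2, 28.5 and 31.1 CPM at day 1 and 18.3, 22.9 and 24.3 CPM at day 6, with day 1 above both other groups, by a narrow margin for IgG (log2 0.34 ± 0.14 against IgG, adjusted p 0.634). Ccl11 was thus higher at day 1 in both paw and DRG, by 1.62 ± 0.33 in paw. Cxcl12 had 84.9, 84.6 and 83.8 CPM with IgG, 83.3, 64.2 and 59.4 CPM at day 1 and 69.9, 61.5 and 57.0 CPM at day 6, with both agonist groups below IgG, by a narrow margin and with a wide spread at day 1 (log2 -0.29 ± 0.12, adjusted p 0.631, and -0.43 ± 0.12, adjusted p 0.995).

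Its receptor Cxcr4 had 13.3, 13.9 and 17.2 CPM with IgG, 15.0, 17.1 and 16.1 CPM at day 1 and 19.3, 18.8 and 18.5 CPM at day 6, with day 6 above all other libraries (log2 0.35 ± 0.10 against IgG, adjusted p 0.995). Cxcl12 and Cxcr4 thus lay on opposite sides of IgG at day 6. Cxcr2 had 2.49, 1.53 and 2.83 CPM with IgG, 1.40, 0.851 and 1.12 CPM at day 1 and 3.16, 1.80 and 1.08 CPM at day 6, with day 1 below IgG (log2 -1.02 ± 0.39, adjusted p 0.588). Beside it, the neutrophil markers summed to 178, 117 and 248 CPM with IgG, 119, 48.2 and 69.7 CPM at day 1 and 342, 163 and 117 CPM at day 6. In each group the library with the most and the one with the least Cxcr2 were also those with the most and the least neutrophil RNA, and the part of this in the difference was not tested.

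At day 6 against IgG in DRG, 2 of the 19 genes were higher at an unadjusted p under 0.05 (Cxcl16 and Cxcr4, against 1.88% of all genes) and 1 was lower (Cxcl12, against 1.72%), with 0 called by edgeR, by voom and by DESeq2, and 0% of all genes called by edgeR. The groups did not overlap for 2 higher genes (5.16% of all genes) and 2 lower ones, Cxcl12 and Cxcr3 (3.72%). From day 1 to day 6 the log2 difference was negative for 17 of the 19 genes, with a median of -0.23 against 0.00 over all genes. Of these, 5 were lower at an unadjusted p under 0.05 (Cxcl1, Cxcl9, Cxcl10, Ccl9 and Ccl11, against 4.03% of all genes), and 1, Cxcr4, was higher (2.80%). The groups did not overlap for 4 lower genes, Ccl11, Cxcl9, Cxcl10 and Ccr10 (6.47%), and 1 higher one (6.01%). After adjustment 0 were called by edgeR (0.103% of all genes), 0 by voom and 2 by DESeq2 (Ccl11 and Cxcl10). The values were -3.12 ± 0.73 for Cxcl10 (adjusted p 0.421), -1.90 ± 0.74 for Cxcl9 (adjusted p 0.694) and -0.58 ± 0.14 for Ccl11 (adjusted p 0.306).

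The other genes kept in DRG overlapped between IgG and both agonist groups. Ccl5, a T cell attractant, had 0.394 ± 0.301 CPM with IgG, 0.755 ± 0.537 CPM at day 1 and 0.652 ± 0.139 CPM at day 6 (SD, n = 3). Ccl6 had 7.07 ± 1.94, 7.40 ± 3.39 and 6.42 ± 0.894 CPM in the same order, Ccl9 5.63 ± 0.445, 6.50 ± 1.60 and 4.61 ± 0.951 CPM, and Ccr1 1.83 ± 0.737, 1.57 ± 0.605 and 1.44 ± 0.561 CPM. All 4 overlapped with IgG at both times. Ccl22, Ccl25, Cxcl14, Ccr10 and Cxcr6 had mean levels of 0.318 to 2.13 CPM in all groups, with log2 differences from IgG between -0.71 ± 0.45 (Cxcl14 at day 6) and 0.81 ± 0.49 (Cxcr6 at day 1).

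Spinal cord was compared between day 6 and day 1 of agonist. The receptors Cxcr2 and Cxcr4 and the ligands Ccl6 and Cxcl10 were higher at day 6. Of 16 genes tested, 4 were higher at an unadjusted p under 0.05 (Cxcr4, Cxcr2, Ccl6 and Cxcl10, against 5.39% of all 15096 genes) and 0 lower (4.31%), and for the same 4 the groups did not overlap (8.17% of all genes wholly higher and 8.21% wholly lower). Cxcr2 had 5, 6 and 14 counts at day 1 and 125, 20 and 25 at day 6. Cxcl10 had 5, 12 and 9 counts at day 1 and 14, 13 and 24 at day 6. Both met the count minimum only with the day 6 libraries, so the filter favours their direction. After adjustment 0 were called by edgeR, where 0% of all genes were, 0 by voom and 3 by DESeq2 (Cxcr4, Cxcr2 and Ccl6). The median log2 difference was 0.41 over the 16 genes and 0.01 over all genes.

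Cxcr4 had 4.43, 4.62 and 4.70 CPM at day 1 and 14.9, 7.90 and 9.79 CPM at day 6 (2.37-fold, log2 1.24 ± 0.23, adjusted p 0.463). Cxcr2 had 0.191, 0.245 and 0.582 CPM at day 1 and 5.69, 0.823 and 1.58 CPM at day 6 (log2 2.99 ± 0.86, adjusted p 0.463). Ccl6 had 2.56, 3.11 and 2.87 CPM at day 1 and 10.4, 4.24 and 6.44 CPM at day 6 (log2 1.30 ± 0.32, adjusted p 0.463). For all 3 the day 6 libraries were above day 1 and library 1 was the highest. The neutrophil markers were ordered alike at day 6, at 404, 82.6 and 110 CPM against 33.6, 37.6 and 52.5 CPM at day 1. B cell markers were 12.2, 2.30 and 2.34 CPM at day 6 against 0.802 to 1.68 CPM at day 1, and eosinophil markers were 24.4, 7.24 and 8.72 CPM against 2.78 to 3.57 CPM. Schwann and satellite glia markers, which have 5 genes, were 17715, 8086 and 16113 CPM at day 6 against 7066, 10260 and 8348 CPM at day 1, and fibroblast markers 1198, 280 and 1029 CPM against 273, 706 and 423 CPM. Both had the order of Cxcr4 among the day 6 libraries but overlapped between the days, and the part of these cells in the differences was not tested. Without day 6 library 1 the log2 differences were 0.94 ± 0.15 for Cxcr4, 1.78 ± 0.55 for Cxcr2 and 0.90 ± 0.23 for Ccl6, each positive and none called.

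Day 6 library 2 had the opposite weight. Without it edgeR called 4 of the genes, Cxcr4 (log2 1.43 ± 0.18), Ccl6 (1.57 ± 0.21), Ccl11 and Cxcl14, among 818 genes of the whole table. It was the day 6 library with the fewest meningeal reads: genes of the meninges, such as Igf2 and Slc6a13, summed to 237, 638 and 342 CPM at day 1 and 930, 265 and 807 CPM at day 6. Ccl11 had 1.22, 3.35 and 1.95 CPM at day 1 and 7.78, 1.23 and 7.20 CPM at day 6, the same order of the 6 libraries as for the meningeal genes, and the groups overlapped (log2 1.30 ± 0.73, adjusted p 0.579). The part of meningeal tissue in the cord differences was not tested beyond a fit with a meningeal term, in which Cxcr4 was 1.03 ± 0.19 and not called.

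**Figure D5:**
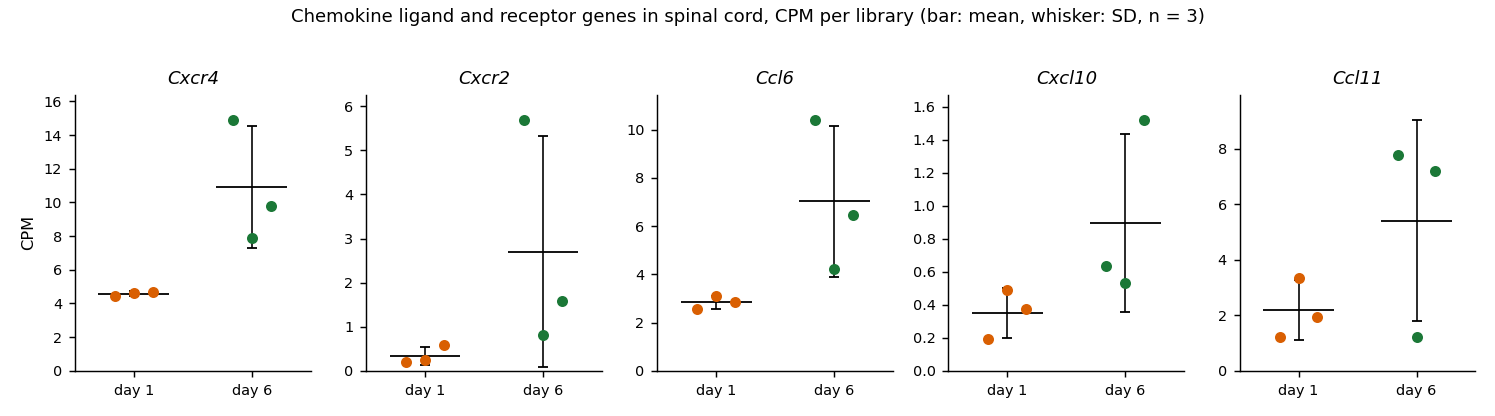
CPM of 5 chemokine ligands and receptors in each spinal cord library at day 1 and day 6 of agonist (points, with the mean as a bar and the SD as a whisker, n = 3; each panel has its own axis from 0). Cxcr4 is at 4.43 to 4.70 CPM at day 1 and 7.90 to 14.9 CPM at day 6, and Ccl11 overlaps because 1 day 6 library is at 1.23 CPM.

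Cxcl10 had 0.191, 0.490 and 0.374 CPM in cord at day 1 and 0.637, 0.535 and 1.52 CPM at day 6, higher by a narrow margin (log2 1.29 ± 0.53, adjusted p 0.504), where in DRG it was lower at day 6 than at day 1. The other 11 cord genes overlapped. Cxcl14 had 89.9 ± 7.34 CPM at day 1 and 78.9 ± 14.1 CPM at day 6, Cxcl12 56.3 ± 5.50 and 68.1 ± 14.8 CPM, Ccl25 5.73 ± 0.605 and 5.31 ± 0.486 CPM, and Cxcl16 4.28 ± 1.18 and 5.53 ± 1.69 CPM (SD, n = 3). The groups overlapped for these 4 ligands, with log2 differences of -0.19 ± 0.13 for Cxcl14, 0.28 ± 0.16 for Cxcl12, -0.11 ± 0.15 for Ccl25 and 0.36 ± 0.29 for Cxcl16. Ccr1 was 0.806 ± 0.108 and 1.70 ± 1.20 CPM (log2 1.08 ± 0.50, adjusted p 0.523). Cxcl5, Cxcl11, Ccl9, Ccl17, Ccl22 and Ccr10 had log2 differences from -0.50 ± 0.33 (Ccl17) to 0.81 ± 0.95 (Cxcl11).

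Whether the paw and DRG responses differed was tested directly, as the difference of the 2 log2 changes in 1 fit to 18 libraries, for the 16 genes kept in both tissues. The fit treated paw and DRG libraries as independent, although they may share mice. At day 1, 0 had an adjusted p under 0.05 by edgeR and by voom, and 3 had an unadjusted p under 0.05 (Cxcl1, Ccl11 and Cxcl12), where 9.68% of all 16461 genes did. Cxcl1 was lower in paw and higher in DRG, a difference of -4.30 ± 1.13 (adjusted p 0.300), and it was called by DESeq2. In DRG Cxcl1 met the count minimum only with the day 1 libraries. Ccl11 was higher by more in paw, by 1.28 ± 0.37 (adjusted p 0.327), than in DRG. Cxcl12 was above IgG in paw (log2 0.23 ± 0.14) and below it in DRG (-0.29 ± 0.12), a difference of 0.51 ± 0.19 (adjusted p 0.418). For Cxcl10 the difference was -1.39 ± 0.86 (adjusted p 0.593), so its larger value in DRG was not separated from that in paw. At day 6, 0 were called by edgeR, where 0.498% of all genes were, and by voom, and 4 had an unadjusted p under 0.05 (Cxcl1, Cxcr3, Ccr1 and Ccl9, against 7.73% of all genes). Cxcr3 differed by 2.58 ± 0.62 (adjusted p 0.104) and Cxcl1 by -4.43 ± 1.26 (adjusted p 0.194), the latter called by DESeq2. Cxcr3 met the count minimum in paw only through its day 6 libraries.

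For context, 37 other genes of the chemokine system were counted, the remaining ligands and receptors with decoy receptors and signalling genes. In paw at day 6, 5 of 27 tested rose against IgG by edgeR and 0 fell, where 0.706% of all genes were called. These were Ccr2, the receptor that brings monocytes out of the blood (log2 2.48 ± 0.31, adjusted p 0.0179), the fractalkine receptor Cx3cr1 (2.28 ± 0.38, adjusted p 0.0406), the arrestin Arrb2 (0.72 ± 0.13, adjusted p 0.0490), and Dock2 and Pik3cg, which act in leukocyte migration (1.52 ± 0.25 and 1.26 ± 0.16, adjusted p 0.0404 and 0.0170). Limma voom called the same 5 and DESeq2 these and 3 more. The calls rested on single libraries: without IgG library 2 or 3, or without day 6 library 1 or 2, none of the 5 was called, as no gene of the whole table was. Ccr2 lay between 2.23 and 2.70 over the 6 fits that left out 1 library. Without IgG library 1, Ccr2 and Pik3cg were called, and without day 6 library 3 all but Arrb2. Ccr2 and Pik3cg also rose from day 1 to day 6 in paw (2.68 ± 0.32 and 1.13 ± 0.16, adjusted p 0.0202 and 0.0248), 2 of 27 by edgeR where 1.03% of all genes were called, while voom called 8 and DESeq2 9. Ccr2 lost that call without day 1 library 1 or 3 or day 6 library 1 or 2, and Pik3cg in these fits and without day 1 library 2. In paw at day 1, 0 of the 27 were called by edgeR and by voom and 1, Ccl2, by DESeq2, with 5 higher and 1 lower at an unadjusted p under 0.05 (4.01% and 6.63% of all genes). For Ccr2, Arrb2 and Dock2 the day 6 responses of paw and DRG differed by the direct test, called in 8, 3 and 4 of 12 fits that left out 1 library, where 0.498% of all genes were called. Of 28 genes tested there, voom called 2 (Ccr2 and Dock2) and DESeq2 5.

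In DRG at day 1, Cx3cl1, the membrane-bound ligand of Cx3cr1 made by neurons, rose from 12.1, 10.3 and 12.6 CPM to 33.9, 35.3 and 33.8 CPM (log2 1.56 ± 0.10, adjusted p 8.35e-05), and it fell again by 1.27 on the log2 scale at day 6. It was the 1 gene of 25 tested that edgeR called in each of these comparisons, where 0.168% and 0.103% of all genes were called. Against IgG at day 1, voom called 2 (Cx3cl1 and Cx3cr1) and DESeq2 4 (these, Ccl2 and Ccl7), and between the days voom called 1 (Cx3cl1) and DESeq2 4 (Cx3cl1, Ccl2, Ccl7 and Ccl12). Both edgeR calls held in all 6 fits that left out 1 library. In DRG at day 6 against IgG 0 were called by edgeR, voom and DESeq2, with 3 higher and 0 lower at an unadjusted p under 0.05 (1.88% and 1.72% of all genes). In cord 0 of 19 were called by edgeR and voom and 2, Ccr2 and Cx3cl1, by DESeq2, with 3 higher and 1 lower at an unadjusted p under 0.05 (5.39% and 4.31% of all genes). Set beside Cx3cl1, Cxcl10 had a larger day 1 difference in DRG, 2.85 ± 0.72, with a much larger SE.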

How the data were processed

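Paw skin, DRG and spinal cord were profiled with 50 bp single reads, using some 500 ng of RNA per library and a stranded kit that selects polyadenylated RNA, per the labels' protocols. The files hold read counts for each gene symbol, as deposited, with 1 library in each, not normalized. They were made with bcl2fastq, TopHat2 (mm9) and HTSeq, per the submitters' processing notes, whose versions, gene annotation and strand option are not given in the sources used here. The 5 summary lines of a file were removed, and 0 columns came from other samples. Of 24 pairs of replicates, 0 held identical counts.

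Groups came from the labels, 8 groups of 3. The count tables were fitted per tissue with edgeR 4.0.16 (R 4.3.3, limma 3.58.1): TMM normalization, the package's default low-count filter, robust quasi-likelihood dispersions and 2-sided F tests, with Benjamini-Hochberg adjustment over all genes tested and a threshold of 0.05. This tested 15287 genes in paw, 15461 in DRG and 15096 in cord, and 16461 in the fit to 18 paw and DRG libraries. CPM use library size times TMM factor within the tissue, or over all 24 libraries where tissues are compared. The SE of a log2 fold change was derived from its F statistic.

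Every listed gene with at least 10 counts in at least 3 libraries of a tissue is described there, whatever its values; of the other chemokine genes only those past the threshold are named. The genes, the marker lists and the tests were chosen with earlier results of these data known. The alternatives were DESeq2 1.42.0, limma voom with quality weights, 2 other normalizations, 2 other filters, a replicate block, a term for muscle or meningeal genes, a fit to only the groups compared, and leaving out each library. Promoter sequences came from RefSeq (GRCm38.p6). The fits were tested on simulated counts drawn with the means, dispersions and depths of these libraries.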

Additional observations from a re-analysis of the deposited data

How the results depend on the processing

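The 55 log2 differences of chemokine genes with an unadjusted p under 0.05 in the planned edgeR fits were recomputed in 845 alternative values. Of these values 30 were past the threshold, 22 of them by DESeq2, and 0 reversed in direction. The differences were chosen by that p and the alternatives reuse most of the same libraries. The absence of reversals was thus largely fixed in advance and is no separate support. The count of chemokine genes called, 0 by edgeR in all 9 comparisons, depended on the tool. DESeq2 called 1 in paw at day 1 and 6 at day 6 against IgG, 6 between these days, 2 in DRG at day 1 and 2 between DRG day 6 and day 1, 3 in cord, and 1 in each comparison of the paw and DRG responses. Between paw day 6 and day 1, voom called 1 (Ccl11), a skeletal muscle term gave 2 (Ccl11 and Cxcr4), and fitting only the groups compared gave 2 (Ccl11 and Cxcl1). Leaving out 1 cord library at a time gave 0 to 4, the 4 being without day 6 library 2. The cause of these differences was not tested.

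Calls over all genes moved as well. Over all alternatives the count ran from 0 to 209 in paw at day 1 (1 as planned), 0 to 509 in paw at day 6 (108), 0 to 737 between them (157), 8 to 131 in DRG at day 1 (26), 0 to 2 at day 6 (0), 1 to 105 between them (16) and 0 to 818 in cord (0), and for the differences between the tissue responses from 0 to 60 at day 1 (0) and 19 to 234 at day 6 (82). Leaving out 1 library at a time gave 0 to 155 calls in paw at day 6 against IgG, 0 to 141 between the paw days and 8 to 35 in DRG at day 1.

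With the replicate block 1 chemokine gene was called between paw day 6 and day 1 (Ccr1), and 0 in the other comparisons. Within a tissue, samples of different groups that share a number did not deviate together, with correlations of -0.64 to 0.32 in paw, -0.69 to 0.24 in DRG and -0.60 to -0.18 in cord. The numbers were therefore not taken to pair the samples across groups. Whether paw and DRG samples of the same group and number came from the same mouse was not checked. Depth limits the scarce genes most: Cxcl1 in DRG rests on 7 counts over the IgG libraries, and a count minimum of 5 would keep 32, 26 and 17 genes in paw, DRG and cord, a minimum of 20 would keep 25, 15 and 11.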
